A study of Mus musculus with 9 samples.

Results

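The genes described here encode the sensors with which B cells detect lipopolysaccharide (LPS), a glycolipid of the Gram-negative bacterial envelope, and other microbial ligands. They are 10 genes of the 29995 in the deposited table without immunoglobulin genes. They were taken by name, at a time when earlier results of these data were known. The members are Tlr4 and its partner Ly96, Cd180 and its partner Ly86, the LPS co-receptor Cd14, the receptors Tlr1, Tlr2, Tlr7 and Tlr9, and the adaptor Myd88. All 10 were in the table, and 9 passed the filter on low values and entered the test over 12892 genes. Cd14 did not pass and is described by its levels alone.

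RNA was sequenced from sorted splenic cells of B6.Blimp1+/GFP mice, which carry a GFP reporter in 1 allele of Prdm1, the gene of the plasma cell regulator Blimp1. All mice were 12 weeks old and had received 50 µg NP-LPS, the hapten nitrophenyl on LPS, into the peritoneum 4 days earlier, and this holds for the naive group as well. Naive B cells were sorted as IgD high, B220+ cells that did not bind NP. The NP-specific B cells had lost IgD, bound NP, and were B220+, GFP- and CD138-, whereas NP-specific plasma cells (PCs) bound NP, had lost IgD, and were GFP+ and CD138+ with B220 present or absent. A dump gate on CD4, CD8a, Ter-119 and F4-80 was applied to each group, and each group had 3 libraries from 3 mice. The values below are TPM, transcript abundances scaled to transcript length and to a fixed sum per library, so that the levels of different genes can be compared.

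Toll-like receptors are membrane proteins whose extracellular leucine-rich repeats bind microbial products and whose cytoplasmic TIR domains recruit adaptors. Tlr4 needs the small secreted protein MD-2, encoded by Ly96, to bind LPS, and Cd14 hands LPS over to this pair. Cd180 (RP105) is a B cell homologue of Tlr4 without a TIR domain and pairs with MD-1, encoded by Ly86. Tlr2 pairs with Tlr1 or Tlr6 to bind bacterial lipoproteins at the cell surface, whereas Tlr7 and Tlr9 bind RNA and DNA in endosomes. Murine B cells are unusual among lymphocytes in that LPS alone can drive them to divide and to secrete antibody.

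The libraries held 20189900 to 38602300 estimated reads without immunoglobulin genes, with the PC libraries the shallowest at 20189900 to 22137400. The summed TPM of 5 B cell markers was 7690 to 8050 in naive, 5770 to 6290 in NP-specific and 1490 to 1560 in PC libraries. The summed TPM of 5 plasma cell markers, read from the full table, was 113 to 135, 438 to 613 and 15800 to 18100. Igj made up 273 to 465 of the NP-specific and 14200 to 16500 of the PC sum. Each of the 5 genes was highest in the PC libraries. Sdc1, the gene of CD138, had 4.05 to 7.94 TPM in naive, 0.0822 to 1.33 in NP-specific B cell and 76.4 to 89.6 in PC libraries. No marker list particular to the NP-specific B cells was summed. PC replicate 3 stood apart through hepatocyte transcripts, with a summed TPM of 4540 over 5 genes against 22.3 and 25.7 in the other PC libraries, and values without it are given where this moves the call of a member. In sorted bulk samples fewer expressing cells and less RNA per cell cannot be told apart.

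In NP-specific B cells compared with naive B cells, Ly96 was the only member past the threshold (adjusted p under 0.05 and a fold over 2), and it was higher. That is 1 of 9 tested members, against 18.5% of all genes tested (8.13% higher, 10.4% lower). In PCs compared with naive B cells 5 members passed, with Ly96 higher and Cd180, Ly86, Tlr1 and Tlr9 lower, against 37.8% of all genes (11.4% higher, 26.3% lower). The full table with immunoglobulin genes gave 8 (1 higher, 7 lower) in this comparison. In PCs compared with NP-specific B cells 7 passed, the same 5 genes in the same directions plus Tlr7 and Myd88, which were lower, against 32.2% of all genes (9.93% higher, 22.3% lower). This last count was 5 (1 higher, 4 lower) with median-of-ratios or quantile scaling, which lost Tlr7 and Myd88, and 6 with TMM. It was 6 without PC replicate 3, and 6 without NP-specific B cell replicate 1 or 3. The full table gave 7 (0 higher, 7 lower) here, without Ly96 and with Tlr4. The median log2 change of the tested members was 0.24, -0.80 and -1.37 in these comparisons, beside -0.16, -0.47 and -0.30 over all genes tested. The last 2 comparisons share the PC libraries and each pair of comparisons shares a group, so they are not independent of each other.

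**Figure D1:**
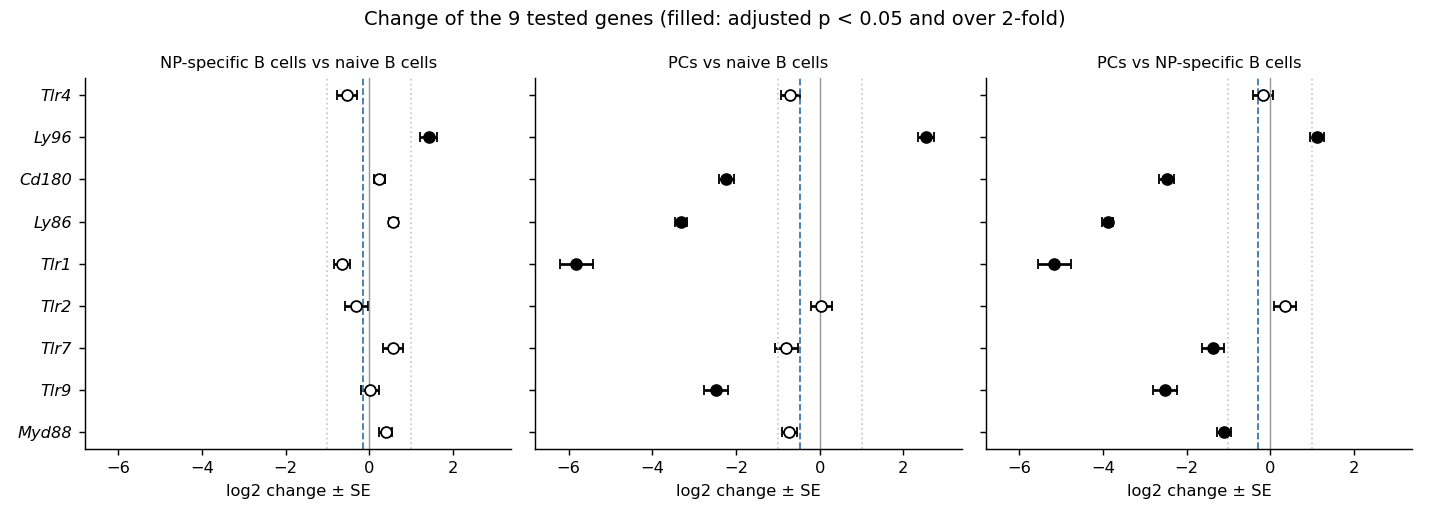
Log2 change of the 9 tested genes (points) with its SE (bars) in each comparison, on the scale of log2 (TPM + 0.5). Filled points passed the threshold, the dashed line is the median of all genes tested and the dotted lines mark a 2-fold change. Ly96 lies to the right of both dotted and dashed lines in every panel, and Tlr1 lies farthest to the left in both PC panels.

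**Figure D2:**
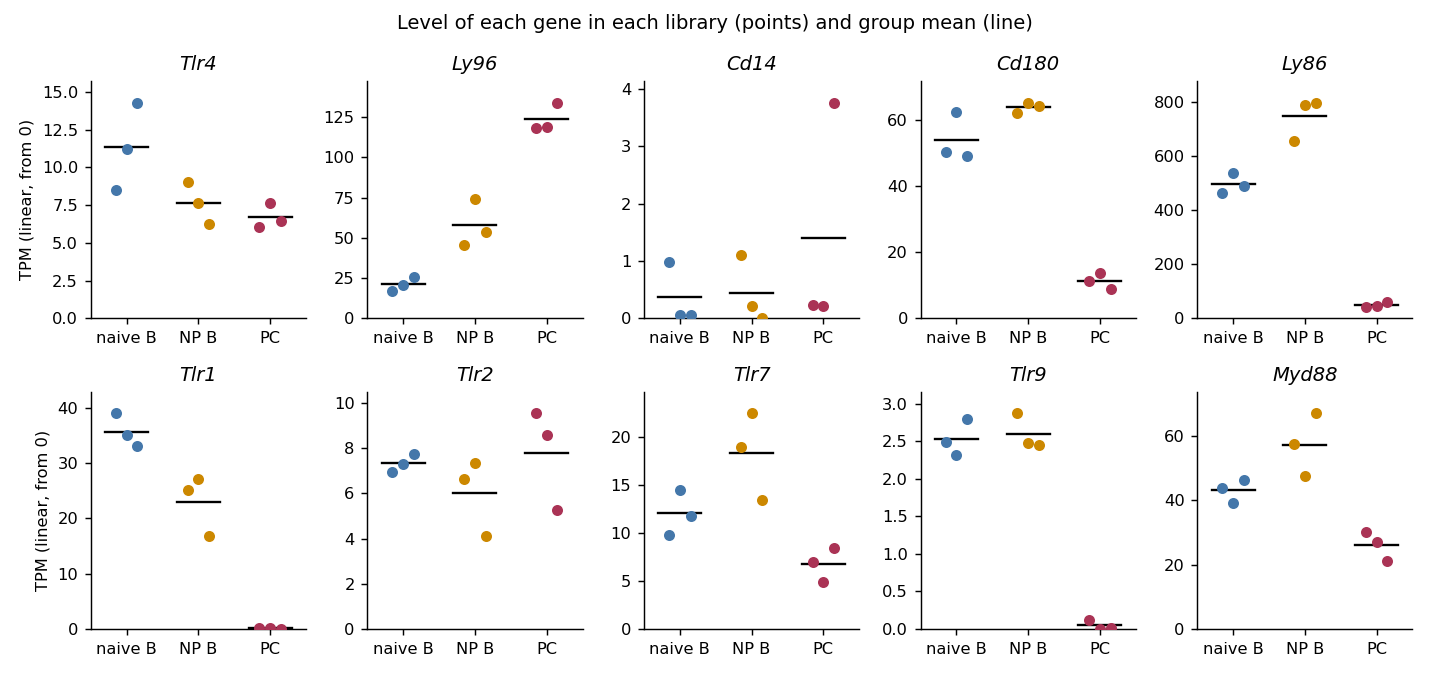
TPM of each of the 10 genes in each of the 9 libraries (points, linear axis from 0) with the group mean (line). Ly96 is highest in the PC libraries, Cd180, Ly86, Tlr1 and Tlr9 are lowest there, and the Cd14 mean of PCs rests on a single library.

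The order of the genes by level differed between groups. In naive B cells Ly86 had the highest mean at 497 TPM, followed by Cd180 at 54.0, Myd88 at 43.1, Tlr1 at 35.7 and Ly96 at 21.0. Ly86 also led in NP-specific B cells at 749 TPM, followed by Cd180 at 63.9, Ly96 at 57.7 and Myd88 at 57.3, and these 3 overlapped between libraries. In PCs Ly96 led at 124 TPM, ahead of Ly86 at 50.1, Myd88 at 26.2 and Cd180 at 11.2. Tlr2, Tlr7 and Tlr4 came next in PCs with means of 7.79, 6.77 and 6.69 TPM and overlapping libraries, and Tlr1 and Tlr9 had means of 0.153 and 0.046 TPM.

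The first question was how the genes of the LPS receptor itself, Tlr4, Ly96 and Cd14, differed between naive B cells, NP-specific B cells and PCs. Ly96 (chr1:16688051-16709611, plus strand, GRCm38) had a TPM of 16.7, 20.9 and 25.5 in the naive libraries, of 45.8, 73.8 and 53.4 in the libraries of NP-specific B cells, and of 118, 119 and 134 in the PC libraries. In this table without immunoglobulin genes the 3 groups did not overlap, and the gene stepped up between each. Its log2 change was 1.42 ± 0.21 (SE) from naive to NP-specific B cells (limma adjusted p = 0.000383), 2.54 ± 0.20 from naive B cells to PCs (limma adjusted p = 1.06e-06) and 1.12 ± 0.17 from NP-specific B cells to PCs (limma adjusted p = 0.000197). The first 2 of these differences passed the threshold under all 21 alternatives computed for each. The difference between the NP-specific groups did not. In the full table, where immunoglobulin transcripts take part of the fixed sum, with each library scaled to its column total, the log2 change of Ly96 was -0.08 (limma adjusted p = 0.731). The full-table TPM itself was 40.5 to 66.2 in NP-specific B cell and 33.1 to 40.2 in PC libraries, so it was lower in each PC library. Leaving out NP-specific B cell replicate 1 gave 0.97, below the fold threshold.

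Tlr4 (chr4:66827584-66930284, plus strand), the signalling chain of the receptor, moved less. Its TPM was 8.49, 11.2 and 14.3 in the naive libraries, 9.06, 7.61 and 6.25 in the libraries of NP-specific B cells and 6.04, 7.63 and 6.42 in the PC libraries. The NP-specific B cells overlapped with both other groups, whereas each PC library lay below each naive library. The log2 change was -0.53 ± 0.23 (SE) from naive to NP-specific B cells (limma adjusted p = 0.0788) and -0.70 ± 0.23 from naive B cells to PCs (limma adjusted p = 0.0214, under 2-fold). The latter was -0.67 without PC replicate 3 (limma adjusted p = 0.0531), and -0.28, -0.21 and -0.13 with TMM, median-of-ratios and quantile scaling (limma adjusted p = 0.329, 0.46 and 0.635). Between the NP-specific groups it was -0.17 ± 0.24 (limma adjusted p = 0.588), and its sign depended on the scaling, as the same scalings gave 0.16, 0.21 and 0.32. In the full table Tlr4 fell by 1.70 from naive B cells to PCs (limma adjusted p = 0.000114) and by 1.16 from NP-specific B cells to PCs (limma adjusted p = 0.00202), both past the threshold.

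Cd14 (chromosome 18) was under the floor of 3 estimated reads in 3 libraries and low in the others. It had 35.0, 2.01 and 2.03 estimated reads in the naive libraries, 49.0, 8.99 and 0 in the libraries of NP-specific B cells and 5.88, 5.88 and 97.6 in the PC libraries. The corresponding TPM was 0.972, 0.0531 and 0.0626, then 1.11, 0.208 and 0, then 0.224, 0.218 and 3.76. The groups overlapped, and the PC mean of 1.40 TPM rested on replicate 3. Cd14 is a marker of monocytes and macrophages. The same PC library had the highest Lyz2 (48.2 TPM against 2.85 and 11.6 in the other PC libraries) and C1qb (15.9 against 1.18 and 0.747), beside the hepatocyte transcripts named above. Over 12 macrophage and monocyte markers in the table the summed TPM was 27.7 to 32.7 in naive, 89.8 to 107 in NP-specific B cell and 719 to 1050 in PC libraries. Ly6c2, which plasma cells also express, made up 668 to 924 of the PC sum. No macrophage marker was at 0 in all PC libraries, and Fcgr1 was at 0 in PC replicates 1 and 2. The part of such cells in the Cd14 values was not tested.

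Cd180 and Ly86, the RP105 and MD-1 pair, changed in the opposite direction to Ly96 in PCs. Cd180 (chr13:102693558-102739629, plus strand) had a TPM of 50.4, 62.6 and 49.0 in naive, 62.0, 65.3 and 64.3 in NP-specific B cell and 11.3, 13.6 and 8.74 in PC libraries. Naive and NP-specific B cells overlapped (log2 change 0.24 ± 0.13 SE, limma adjusted p = 0.172), and all PC libraries lay far below both. The log2 change was -2.24 ± 0.18 (SE) from naive B cells to PCs (limma adjusted p = 1.23e-06) and -2.48 ± 0.17 from NP-specific B cells to PCs (limma adjusted p = 6.38e-07). Cd180 shares 182 exonic bases with Mast4 on the opposite strand, and whether the counting used strand is not given in the sources used here. Mast4 had mean TPM values of 37.6, 20 and 47 in the same groups, an order that is not that of Cd180.

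Ly86 (chr13:37345208-37419036, plus strand) was the most abundant of the 10 genes in both B cell groups. Its TPM was 464, 538 and 490 in naive, 655, 791 and 799 in NP-specific B cell and 43.3, 47.1 and 59.8 in PC libraries, with no overlap between any groups. From naive to NP-specific B cells Ly86 was higher by 0.58 ± 0.11 on the log2 scale (limma adjusted p = 0.00219), under 2-fold. From naive B cells to PCs the change was -3.32 ± 0.14 (limma adjusted p = 9.74e-09) and from NP-specific B cells to PCs it was -3.89 ± 0.14 (limma adjusted p = 3.58e-09). Cd180 and Ly86 passed the threshold in both PC comparisons under all 21 alternatives.

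The ratio of partner genes within a library is unchanged by any factor that scales the whole library. Quantile normalization is no such factor and can change it. Between PCs and naive B cells it left Ly86 at -3.32 and moved Cd180 from -2.24 to -1.84. Ly96 over Tlr4 was 1.97, 1.87 and 1.78 in naive, 5.06, 9.70 and 8.55 in NP-specific B cell and 19.5, 15.6 and 20.9 in PC libraries. The transcript of the LPS-binding partner thus exceeded that of the receptor in all libraries, and the geometric mean of the ratio in PCs was 9.90 times that of naive B cells. Ly86 over Cd180 was 9.2, 8.59 and 10 in naive, 10.6, 12.1 and 12.4 in NP-specific B cell and 3.83, 3.47 and 6.84 in PC libraries, so both genes fell in PCs and Ly86 fell further. Cd180 over Tlr4 had geometric means of 4.84, 8.46 and 1.66, and was above 1 in each library.

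The MD-1 and MD-2 transcripts changed rank. Ly86 over Ly96 was 27.8, 25.7 and 19.2 in naive, 14.3, 10.7 and 15 in NP-specific B cell and 0.369, 0.396 and 0.447 in PC libraries, a log2 difference of -5.90 between PCs and naive B cells. Groups did not overlap in any of the 4 ratios in any of the 3 comparisons. The two-sided exact permutation test gave p = 0.1 for each of the 12 differences (adjusted 0.1 over the 12), and 0.1 is the smallest value that 3 libraries against 3 allow.

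**Figure D3:**
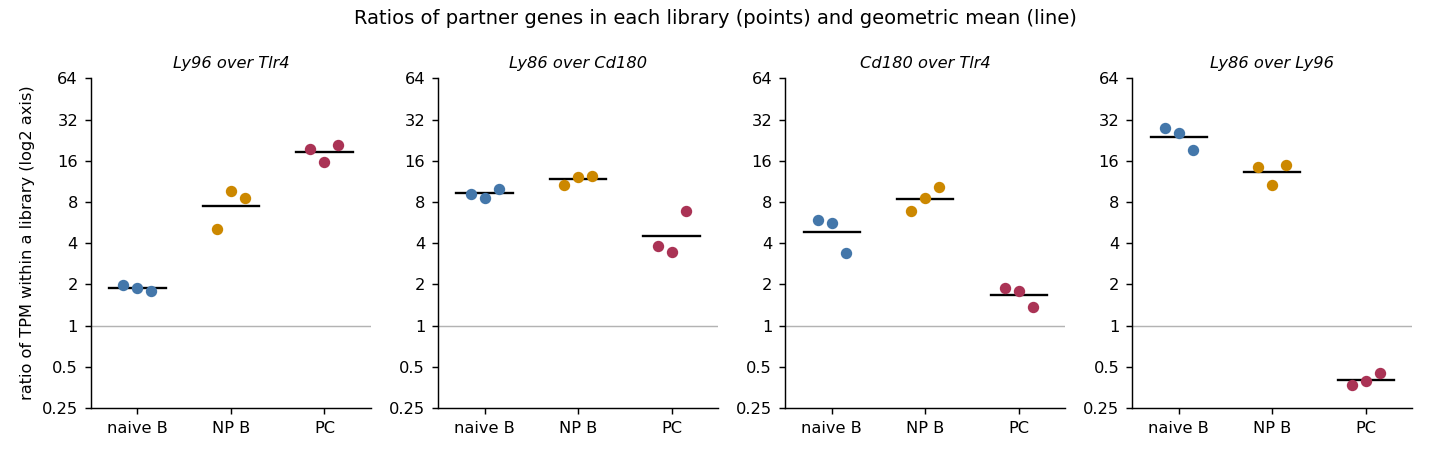
Ratio of the TPM of partner genes in each library (points, log2 axis) with the geometric mean of each group (line). Ly96 over Tlr4 climbs from 1.87 to 7.48 and 18.5, and Ly86 over Ly96 falls from 24.0 and 13.2 to 0.402, below the line of equal levels.

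The genes that passed the threshold downwards in PCs against both B cell groups under each alternative computed were Cd180, Ly86, Tlr1 and Tlr9. Their upstream sequences are shown so that these can be set side by side, with Tlr2 as a member that did not pass the test. RefSeq promoters (GRCm38.p6) were at hand for 6 of the 10 members, and those of Tlr4, Ly96, Cd14 and Tlr7 were not used here. Each sequence is the part of the 250 bases before the RefSeq start that lies outside the GENCODE gene model. Capitals mark GAGGAAGT, a PU.1-like element in Tlr1, and overlapping matches of an NF-kB-like element in Tlr2, which was searched as GGG, any 5 bases and CC. The windows are chr13:102693308-102693557 (plus strand) for Cd180, chr13:37345095-37345207 (plus strand) for Ly86, chr5:64933564-64933808 (minus strand) for Tlr1, chr9:106222348-106222597 (plus strand) for Tlr9 and chr3:83841768-83841858 (minus strand) for Tlr2.
Cd180: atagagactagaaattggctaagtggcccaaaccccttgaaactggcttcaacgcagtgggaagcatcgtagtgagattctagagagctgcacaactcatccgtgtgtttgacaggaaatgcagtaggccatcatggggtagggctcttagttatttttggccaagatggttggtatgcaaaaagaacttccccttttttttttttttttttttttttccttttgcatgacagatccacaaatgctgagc
Ly86: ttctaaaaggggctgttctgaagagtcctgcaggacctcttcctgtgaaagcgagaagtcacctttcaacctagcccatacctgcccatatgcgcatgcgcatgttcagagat
Tlr1: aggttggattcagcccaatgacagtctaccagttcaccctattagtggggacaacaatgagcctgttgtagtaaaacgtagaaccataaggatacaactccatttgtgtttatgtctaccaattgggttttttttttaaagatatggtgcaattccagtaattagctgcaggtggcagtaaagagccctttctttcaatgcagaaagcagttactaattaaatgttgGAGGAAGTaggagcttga
Tlr9: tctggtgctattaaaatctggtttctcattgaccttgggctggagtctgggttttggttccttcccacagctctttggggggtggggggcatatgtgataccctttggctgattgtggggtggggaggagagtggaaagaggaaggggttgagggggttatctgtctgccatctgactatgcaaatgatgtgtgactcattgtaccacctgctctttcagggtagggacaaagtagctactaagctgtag
Tlr2: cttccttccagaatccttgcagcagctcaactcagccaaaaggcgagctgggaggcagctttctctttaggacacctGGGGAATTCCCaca
The PU.1-like match begins 18 bases before the Tlr1 gene model. Another RefSeq promoter of Tlr1 (chr5:64932700-64932949), which lies inside the gene model, held no such match. The PU.1-like motif is in 2.44% of 32851 promoters of 250 bases searched on both strands. The NF-kB-like motif is in 45.8% of them. An IRF-like element (GAAA, any 2 bases and GAAA), present in 2.98% of promoters, was found among the members in that of Myd88 alone. None of these 3 letter patterns is in the windows of Cd180, Ly86 or Tlr9, so the 4 genes that were lower in PCs share no match.

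Tlr1 and Tlr2 encode the chains of a lipoprotein receptor at the cell surface, and they differed sharply in PCs. Tlr1 (chr5:64924679-64933563, minus strand) had a TPM of 39.0, 35 and 33 in naive, 25.2, 27.1 and 16.8 in NP-specific B cell and 0.255, 0.203 and 0 in PC libraries. The 3 PC libraries held 12.8, 10.5 and 0 estimated reads, against 2050 to 2690 per naive library. Groups did not overlap, and the step from naive to NP-specific B cells (log2 change -0.65 ± 0.18 SE, limma adjusted p = 0.0125) was under 2-fold. From naive B cells to PCs the change was -5.82 ± 0.39 (limma adjusted p = 3.42e-07) and from NP-specific B cells to PCs -5.16 ± 0.39 (limma adjusted p = 1.21e-06). The ratio of the reads summed over each group and scaled for depth, which is free of the added 0.5, was 235 for naive B cells over PCs (95% exact interval 157 to 372, counting error only) and 152 for NP-specific B cells over PCs (101 to 240).

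Tlr1 and its neighbour Tlr6 are near-identical over part of their length. Of the 31-base words of the Tlr1 transcripts 20% also occur in other genes, and 607 of these 665 words are in Tlr6, so the division of reads between them is uncertain. Tlr6, the alternative partner of Tlr2, had a TPM of 5.26, 6.14 and 5.56 in naive, 6.18, 7.17 and 4.58 in NP-specific B cell and 0.862, 1.49 and 0.517 in PC libraries. It overlapped between the B cell groups and was lower in PCs (log2 change -2.14 ± 0.31 SE against naive B cells, limma adjusted p = 0.000135), so both genes that share these words were lower in PCs.

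Tlr2 (chr3:83836272-83841767, minus strand), the shared chain, had a TPM of 6.96, 7.30 and 7.72 in naive, 6.63, 7.33 and 4.11 in NP-specific B cell and 9.54, 8.57 and 5.27 in PC libraries. Its groups overlapped in each comparison. The log2 change was -0.31 ± 0.27 (SE) from naive to NP-specific B cells (limma adjusted p = 0.38), 0.04 ± 0.26 from naive B cells to PCs (limma adjusted p = 0.908) and 0.35 ± 0.27 from NP-specific B cells to PCs (limma adjusted p = 0.307). The sign of both PC differences changed with the table, to -0.98 and -0.67 with immunoglobulin genes included.

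The nucleic acid sensors of the endosome were compared next. Tlr7 (chrX:167304929-167330558, minus strand) had a TPM of 9.84, 14.5 and 11.8 in naive, 19.0, 22.5 and 13.5 in NP-specific B cell and 6.95, 4.92 and 8.46 in PC libraries. PC libraries lay below all others, and the B cell groups overlapped (log2 change 0.57 ± 0.23 SE, limma adjusted p = 0.0742). The change from NP-specific B cells to PCs was -1.37 ± 0.26 (limma adjusted p = 0.00101), and it dropped below the fold threshold at -0.99 with median-of-ratios scaling and at -0.88 with quantile normalization. From naive B cells to PCs it was -0.80 ± 0.27 (limma adjusted p = 0.0243), under 2-fold. That difference ranged from -1.80 in the full table, past the threshold, to -0.22 with quantile normalization (limma adjusted p = 0.532).

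Tlr9 (chr9:106222598-106226883, plus strand), the receptor for unmethylated CpG DNA, was low in all groups. Its TPM was 2.49, 2.32 and 2.79 in naive, 2.87, 2.48 and 2.45 in NP-specific B cell and 0.122, 0 and 0.0155 in PC libraries. These correspond to 214 to 221 estimated reads per naive library, 256 to 308 per NP-specific B cell library and 7.84, 0 and 0.986 in the PC libraries, so that 2 PC libraries were under the floor of 3 reads. The B cell groups did not differ beyond their spread (log2 change 0.02 ± 0.22 SE, limma adjusted p = 0.944), and the sign of this change turned when naive replicate 2 or NP-specific B cell replicate 1 was left out. From naive B cells to PCs the change was -2.48 ± 0.29 (limma adjusted p = 2.73e-05), which the added 0.5 compresses. The ratio of summed, depth-scaled reads was 54.1 (95% exact interval 28.3 to 119, counting error only) for naive B cells over PCs and 55.8 (29.2 to 122) for NP-specific B cells over PCs. PC replicate 1 held 7.84 of the 9 PC reads, so both ratios rest mainly on 1 library and would be larger without it.

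Tlr3, the sensor of double-stranded RNA, is no member but was the only Toll-like receptor past the threshold upwards in NP-specific B cells. Its TPM was 1.33, 1.01 and 0.942 in naive, 6.87, 10.7 and 6.24 in NP-specific B cell and 0.408, 0.0202 and 0.0824 in PC libraries. The log2 change from naive to NP-specific B cells was 2.37 ± 0.31 (SE, limma adjusted p = 0.000189), and NP-specific B cells over PCs gave a ratio of summed, depth-scaled reads of 46.9 (95% exact interval 34.4 to 65.8, counting error only). PC replicate 1 held 31.9 of the 40 PC reads, so this ratio rests mainly on 1 library and would be larger without it. The summed TPM of 6 dendritic cell markers was also highest in NP-specific B cells. It was 7.71 to 8.18 in naive, 22.2 to 24.5 in NP-specific B cell and 7.69 to 9.59 in PC libraries. Flt3 made up 15.8 to 19.4 of the NP-specific sum, whereas Xcr1 was lower there (0.680 to 0.936 TPM) than in naive libraries (1.16 to 1.35). Of 5 marginal zone B cell markers, S1pr3 and Cd1d1 were also highest in NP-specific B cells, whereas Cr2, Cd9 and Dtx1 were not. The part of dendritic or marginal zone cells in the Tlr3 values was not tested. Tlr3 also shares 381 exonic bases with Gm45542 on the opposite strand, for which no TPM was given. Tlr12 was lower in NP-specific B cells (log2 change -1.57 ± 0.44 SE, limma adjusted p = 0.0162) from a mean of 2.27 TPM in naive B cells, and this Tlr12 value was -1.12 and no longer past the threshold without NP-specific B cell replicate 3. Tlr5, Tlr8, Tlr11 and Tlr13 had group means under 1 TPM throughout and were not tested.

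The composition of Toll-like receptor transcripts followed from these levels. The summed TPM of the 12 Tlr genes in the table was 78.6 ± 1.86 (SD, n = 3) in naive, 72.3 ± 16.4 in NP-specific and 23.6 ± 1.82 in PC libraries. Tlr1 took 45.4% ± 4.65 of this sum in the naive, 31.8% ± 0.752 in the NP-specific B cell and 0.621% ± 0.543 in the PC libraries. Tlr7 took 15.3% ± 2.62, 25.3% ± 0.898 and 29.1% ± 9.15. Tlr2 and Tlr4, which did not pass the threshold in any comparison of the table without immunoglobulin genes, took 9.33% ± 0.452 and 14.4% ± 3.64 in naive B cells and 32.7% ± 7.39 and 28.6% ± 4.34 in PCs. The 3 leading receptors of PCs, Tlr2, Tlr7 and Tlr4, did not differ beyond their spread, and PC replicate 3 had the largest share of Tlr7 (38.9%) and the smallest of Tlr2 (24.2%).

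**Figure D4:**
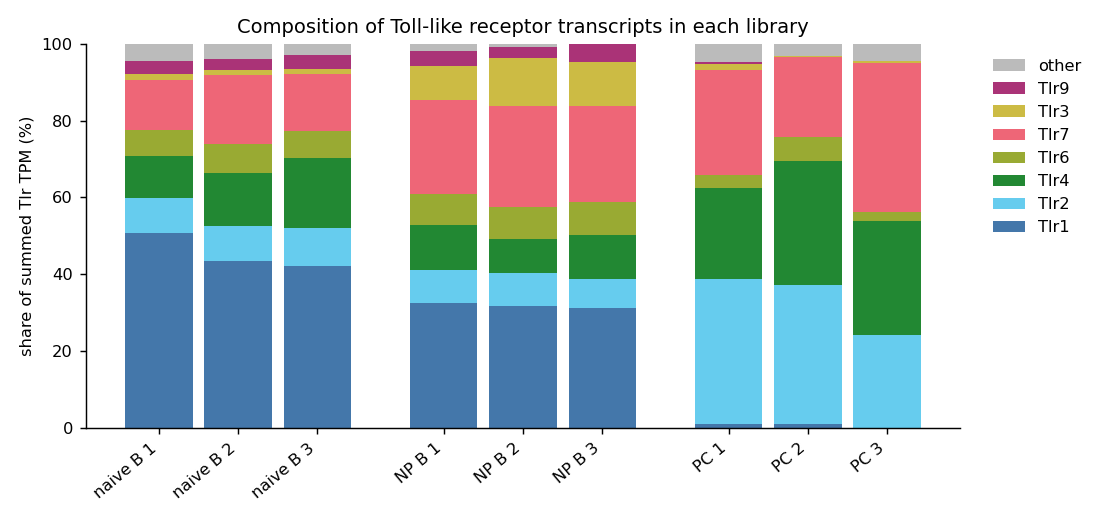
Share of each Toll-like receptor in the summed TPM of the 12 Tlr genes (percent), 1 bar per library. The Tlr1 segment takes 42.1 to 50.7% in naive libraries and at most 1.00% in PC libraries, where Tlr2, Tlr4 and Tlr7 fill most of the bar.

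Myd88 (chr9:119335934-119341411, minus strand) is the adaptor used by all Toll-like receptors named here except Tlr3. Its TPM was 43.7, 39.3 and 46.3 in naive, 57.4, 47.5 and 67.1 in NP-specific B cell and 30.3, 27.1 and 21.2 in PC libraries. No groups overlapped. The change from naive to NP-specific B cells was 0.39 ± 0.16 (SE, limma adjusted p = 0.0712), from naive B cells to PCs -0.73 ± 0.18 (limma adjusted p = 0.00428, under 2-fold) and from NP-specific B cells to PCs -1.11 ± 0.17 (limma adjusted p = 0.000238). The difference between naive B cells and PCs ranged from -1.88 in the full table, past the threshold (limma adjusted p = 7.48e-06), to -0.23 with median-of-ratios scaling (limma adjusted p = 0.267). The value between the NP-specific groups was close to the fold threshold, and it became -1.0 without NP-specific B cell replicate 3, -0.97 without PC replicate 3 and -0.66 to -0.78 under TMM, median-of-ratios or quantile scaling. Myd88 shares 290 exonic bases with Acaa1a on the opposite strand, whose mean TPM was 77.0, 58.2 and 59.3.

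Groups that do not overlap were common among all genes, so the count of members is given beside theirs. It was 4 of 9 tested members between naive and NP-specific B cells (55.9% of all genes), 8 between naive B cells and PCs (69.7%), with Tlr2 the exception, and 7 between the NP-specific groups (58.2%). The scale also bears on the counts. Median-of-ratios scaling moved the median of all genes by 0.49 between PCs and naive B cells and by 0.38 between PCs and NP-specific B cells, and the full table moved it by -0.93 and -0.97. Relative to the median of all genes, Tlr4, Tlr7 and Myd88 differed between PCs and naive B cells by -0.23, -0.33 and -0.25, whereas Ly96 differed by 3.01, Cd180 by -1.76, Ly86 by -2.84, Tlr1 by -5.34 and Tlr9 by -2.01. In the split of all calls between PCs and naive B cells, 1473 genes were higher and 3397 lower here, against 2349 and 1814 with median-of-ratios scaling.

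Other genes of the pathway were taken from a list of 51, of which 50 were in the table and 45 were tested. In NP-specific compared with naive B cells 9 of the 45 passed, 3 of them higher (Tlr3, Irak1 and Ube2n) and 6 lower, a share near the 18.5% of all genes. The count was 7 (4 higher, 3 lower) without NP-specific B cell replicate 3 and 9 (5 higher, 4 lower) with median-of-ratios scaling. In PCs compared with naive B cells 25 passed (3 higher, 22 lower), beside 37.8% of all genes, and 23 passed without PC replicate 3. In PCs compared with NP-specific B cells 22 passed (3 higher, 19 lower), beside 32.2% of all genes. The median log2 change of the list was -0.38, -0.94 and -0.66 in these comparisons, beside -0.16, -0.47 and -0.30 over all genes tested.

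Among proteins that fold and move the receptors, Hsp90b1 and its co-chaperone Cnpy3 went apart. Hsp90b1, also called gp96 or GRP94, is the endoplasmic reticulum chaperone that Toll-like receptors need to fold, and it had means of 225, 404 and 9020 TPM in naive B cells, NP-specific B cells and PCs (5.33 ± 0.11 SE on the log2 scale from naive B cells to PCs, limma adjusted p = 1.02e-10). Cnpy3, which works with Hsp90b1 on these receptors, had means of 120, 113 and 17.5 TPM (-2.75 ± 0.14 from naive B cells to PCs, limma adjusted p = 4.78e-08). Unc93b1, which escorts Tlr7 and Tlr9 to endosomes, had 718, 556 and 169 TPM (-2.10 ± 0.12, limma adjusted p = 8.6e-08). Slc15a4, a lysosomal transporter needed for Tlr7 and Tlr9 signalling, fell in PCs by 2.51 ± 0.21 (limma adjusted p = 2.22e-06), whereas Ctsb, a lysosomal protease, was higher by 2.55 ± 0.10 (limma adjusted p = 7.71e-09).

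The adaptors of the LPS receptor did not move together. Tirap, which bridges Tlr4 and Myd88, had means of 14.5, 17.2 and 26.3 TPM and was under 2-fold in each comparison at this scaling (0.83 ± 0.16 SE from naive B cells to PCs, limma adjusted p = 0.0012). From naive B cells to PCs Tirap was at 1.26 to 1.35 under the other scalings, past the threshold, and at -0.33 with immunoglobulin genes included. Ticam1 (TRIF), the adaptor of Tlr3 and of Tlr4 in endosomes, had 10.8, 9.65 and 24.0 TPM and passed the threshold upwards in PCs (1.12 ± 0.17 from naive B cells, limma adjusted p = 0.000164). With immunoglobulin genes included this Ticam1 value was -0.04 (limma adjusted p = 0.839). Ticam2 (TRAM), which bridges Tlr4 and TRIF, had 6.93, 13.7 and 5.27 TPM and passed it downwards between the NP-specific groups (-1.31 ± 0.19, limma adjusted p = 0.000192), which was -0.84 to -0.97 under the other scalings. Pik3ap1 (BCAP), a B cell adaptor of phosphoinositide 3-kinase, had 81.3, 52.6 and 12.4 TPM (-2.73 ± 0.20 from naive B cells to PCs, limma adjusted p = 8.03e-07).

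Of the kinases that act with Myd88, Irak1 and Irak2 differed in opposite directions between NP-specific and naive B cells. Irak4, which binds Myd88, stood at -0.04 ± 0.13 on the log2 scale in that comparison (limma adjusted p = 0.803). Irak4 had means of 24.4, 23.8 and 7.17 TPM and was lower in PCs (-1.71 ± 0.16 from naive B cells, limma adjusted p = 3.92e-06). Irak1 had means of 39.3, 96.5 and 51.6 TPM and was higher in NP-specific than in naive B cells by 1.29 ± 0.17 (limma adjusted p = 0.000189), whereas Irak2 had 61.8, 19.0 and 10.1 TPM and was lower (-1.70 ± 0.17, limma adjusted p = 2.73e-05). Ikbkb, a catalytic kinase of the NF-kB pathway, had 171, 113 and 34.7 TPM, and Ikbke had 6.65, 11.4 and 2.56 TPM. Chuk, another kinase of that pathway, had 65.5, 57.3 and 45 TPM and did not pass the threshold in any comparison. Of 16 kinases and ubiquitin enzymes, 2 were higher and 2 lower in NP-specific than in naive B cells, beside 8.13% and 10.4% of all genes. Between naive B cells and PCs 5 of the 16 were lower and none higher, a share near the 26.3% of all genes that were lower. Ikbke, 1 of these 5, was at -0.83 to -0.92 under the other scalings, below 2-fold.

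Of the transcription factors, Irf8 fell furthest, with means of 479, 376 and 15.9 TPM (-4.95 ± 0.20 SE from naive B cells to PCs, limma adjusted p = 8.26e-09). Irf5, which acts downstream of Myd88, had 283, 208 and 31.9 TPM (-3.15 ± 0.15, limma adjusted p = 2.59e-08). Irf7 was lower in NP-specific than in naive B cells (-1.10 ± 0.22, limma adjusted p = 0.00241). Of 7 tested genes that restrain the pathway, 2 were lower in NP-specific than in naive B cells (Tnfaip3 at -1.10 ± 0.27 and Dok3 at -1.27 ± 0.09), beside 10.4% of all genes. In PCs compared with naive B cells 6 were lower, beside 26.3% of all genes, and Tollip did not pass (-0.27, limma adjusted p = 0.279). Between NP-specific and naive B cells Irf7 and Tnfaip3 were at -0.99 with median-of-ratios scaling. In the same comparison Tnfaip3 was at -0.72 without NP-specific B cell replicate 3 and Irf7 at -0.89 without NP-specific B cell replicate 2. Cyld, 1 of the 6, was at -0.53 to -0.65 in PCs under the other scalings. All these values were below 2-fold. Among the 6 were Sigirr (19.8, 10.3 and 1.51 TPM), Socs1 (11.3, 5.97 and 1.09 TPM) and Irak3 (31.4, 22.7 and 4.59 TPM).

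**Figure D5:**
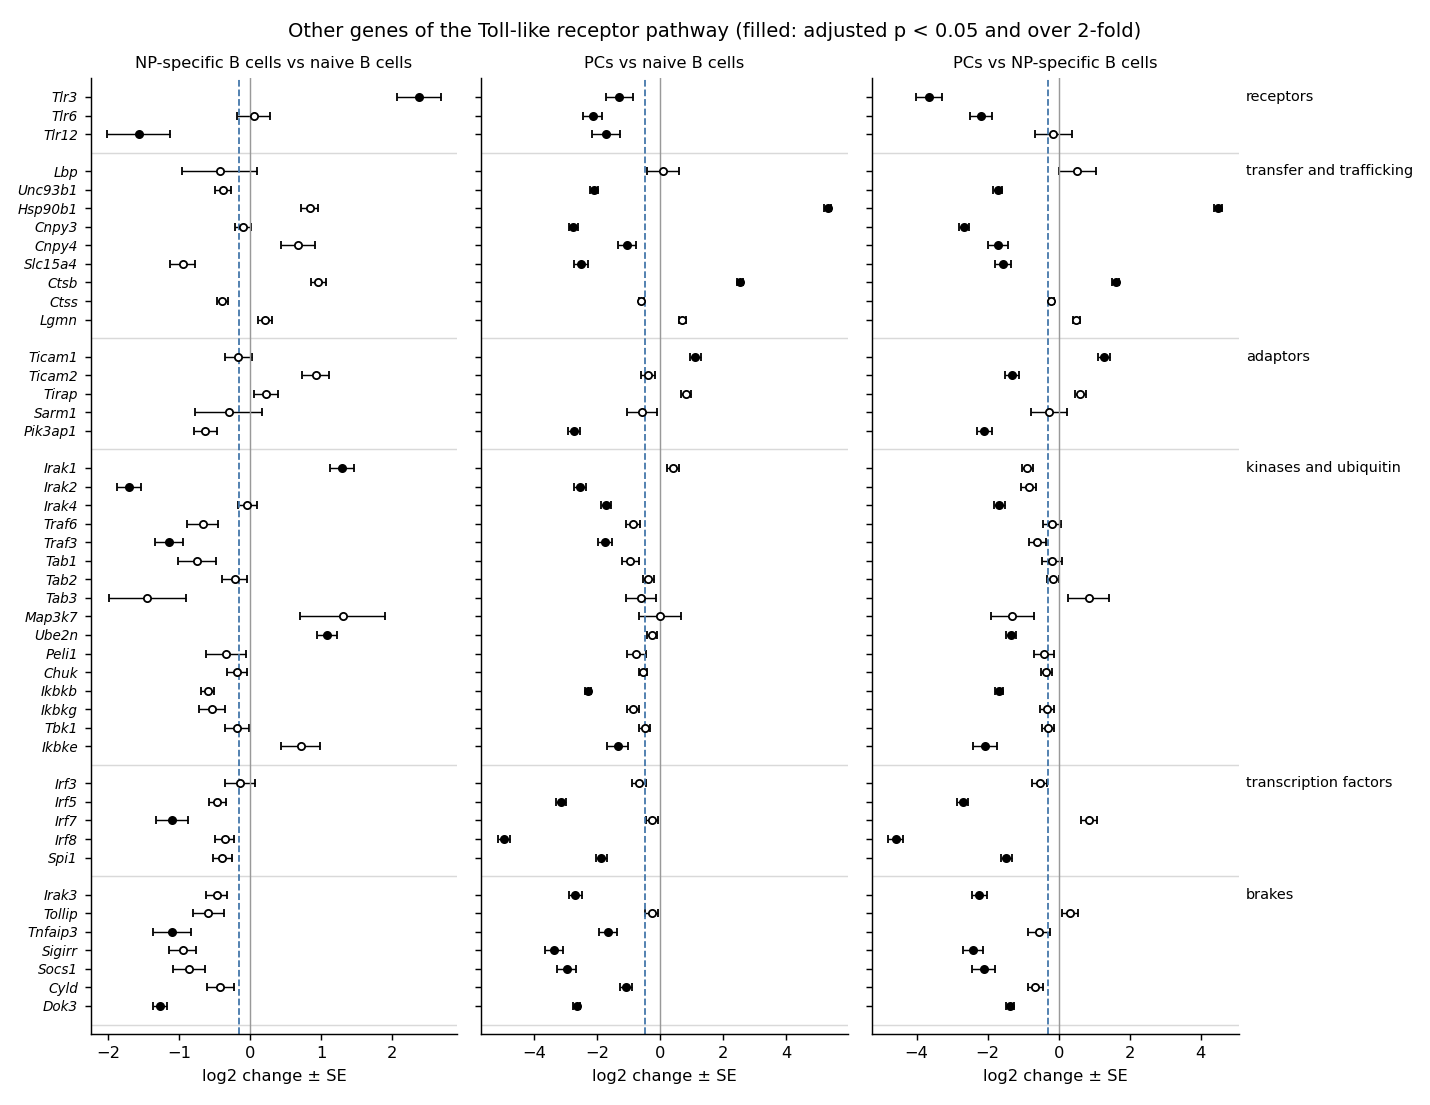
Log2 change with its SE of the 45 tested pathway genes other than the members, in the 3 comparisons, on the scale of log2 (TPM + 0.5). Filled points passed the threshold and the dashed line is the median of all genes. Hsp90b1 lies at 5.33 in the panel of PCs against naive B cells, where 22 filled points lie left of 0 and 3 right of it.

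The genes whose pattern over the 9 libraries was most like that of a member were found by the root mean square (RMS) difference of log2 (TPM + 0.5), centred for each gene. For Ly96 these were Rilpl2 (RMS difference 0.21), Cd9 (0.23) and Sub1 (0.25). Cd9 is a surface protein also listed here as a marginal zone B cell marker, and it had means of 18.9, 49.2 and 86.8 TPM. The summed TPM of 5 marginal zone markers was 496 to 529 in naive, 435 to 471 in NP-specific B cell and 159 to 167 in PC libraries, and the order of the groups differed between its genes. Cr2 had 303 to 350, 141 to 177 and 8.40 to 14.2 TPM, and S1pr3 10.1 to 12.2, 59.6 to 64.1 and 0.102 to 0.443.

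For Cd180 the nearest genes were Actr3 (0.12), Abca3 (0.15) and Vasp (0.16), for Ly86 Gimap4 (0.17), Bcl2a1b (0.18) and Fam129c (0.19), and for Tlr1 Rcsd1 (0.24), Ccr6 (0.26) and Srpk3 (0.30). Tlr9 was nearest to Parvg (0.13), Snx2 (0.14) and Actr3 (0.16), and Myd88 to Lzic (0.08), Cep162 (0.10) and Cab39l (0.11). Tlr4 was nearest to Clcn5 (0.11), Tlr2 to Zfp655 (0.14) and Tlr7 to Tmem106a (0.18). Tlr1 and Tlr9 were at or near 0 in PCs, where the added 0.5 limits the size of their change, and their nearest genes were computed at this offset alone. With 0.1 added instead, the log2 change between PCs and naive B cells was -4.26 for Tlr9 and -2.27 for Cd180. Ly86 was at 0.66 from its partner Cd180 and Ly96 at 1.40 from its partner Tlr4. The 9 libraries form 3 groups, so such likeness reflects mainly the order and size of the group means.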

How the data were processed

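RNA-seq of 9 libraries in 3 groups was analysed. The authors pseudoaligned reads with kallisto and deposited TPM per gene symbol, with and without immunoglobulin genes. The labels name mm10, and the transcript annotation is not given in the sources used here. The deposited log2 values are the authors' voom values (log2 counts scaled to library size, offset of 0.5 counts). The value shared by genes at a TPM of 0 gave each library's size and hence estimated reads. These are estimates without molecular identifiers, so intervals and the floor of 3 reads cover counting error only.

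The TPM of the table without immunoglobulin genes was scaled to each column total and passed to limma-voom (limma 3.58.1, R 4.3.3), as 1 model of all 9 libraries with 3 group means and without a block. The test took genes that reached a TPM of 1 in 3 or more libraries, and Benjamini-Hochberg adjustment ran over 12892 genes. Called genes had an adjusted p under 0.05 and a fold over 2. The script was tested on simulated data. Log2 changes refer to log2 (TPM + 0.5), so the changes of low genes are understated. Partner ratios were compared by two-sided exact permutation tests.

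The members, the pathway list and the tests were chosen with earlier results of these data known. The text names all members, and of the pathway list the other Toll-like receptors, fixed trafficking proteins and adaptors, and in each subgroup some of the called genes. These were not always the ones with the largest changes. Traf3 (-1.74) and Spi1 (-1.86) were called between PCs and naive B cells and are not described above. The 3 tested genes nearest to each member were taken by RMS difference. Marker lists of dendritic, T cell, erythroid and neutrophil genes were summed too. Dendritic sums were 7.71 to 8.18 TPM in naive, 22.2 to 24.5 in NP-specific B cell and 7.69 to 9.59 in PC libraries. T cell sums were 3.78 to 7.42 and erythroid sums 2.25 to 25.0. Neutrophil sums were 0.362 to 6.65, except 53.2 in NP-specific B cell replicate 2 and 33.4 in PC replicate 3. The sum of 3 follicular markers, read from the full table, was 4330 to 4410 in naive, 565 to 701 in NP-specific B cell and 3.30 to 5.90 in PC libraries. Gene positions are from GENCODE M21 on GRCm38, the build that mm10 names. Alternatives were other scalings, filters, pseudocounts, tables, the estimated counts and leaving out each library.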

Additional observations from a re-analysis of the deposited data

How the results depend on the processing

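Of 558 log2 changes of members recomputed under the alternatives, 536 kept their direction and their side of the threshold, and 62 of 63 counts of members called stayed within 1.5 times. All 96 recomputed differences of partner ratios kept their direction, in a design where their test cannot pass 0.05. The full table with immunoglobulin genes gave 8 members called between PCs and naive B cells (1 higher, 7 lower), and 38 (2 higher, 36 lower) and 35 (1 higher, 34 lower) genes of the pathway list in the PC comparisons, in a table where the median of all genes moved by -0.93 and -0.97. It turned Ly96 between PCs and NP-specific B cells to -0.08 and Tlr2 to -0.98 against naive and -0.67 against NP-specific B cells. Tlr4 between PCs and NP-specific B cells became 0.21, 0.32 and 0.16 with median-of-ratios, quantile and TMM scaling. Leaving out 1 library turned Tlr2 between PCs and naive B cells to -0.12 (PC replicate 1) and -0.05 (PC replicate 2), in a range of -0.12 to 0.28, and Tlr9 between the B cell groups to -0.03 (naive replicate 2) and -0.04 (NP-specific B cell replicate 1), in a range of -0.04 to 0.08. Among the 5 member receptors alone Tlr1 took 51.9% in naive and 39.8% in NP-specific B cells, because fewer genes enter the sum.

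With the replicate number as a block, 1, 5 and 7 members and 10, 25 and 23 pathway genes were called in the 3 comparisons, against 1, 5 and 7 and 9, 25 and 22 without it. The sources name 3 mice but do not say that a number marks the same mouse, and the deviations of same-numbered libraries correlated at -0.0749 to 0.0675, so the numbers were not taken to pair the libraries. Cd14 was under the floor of 3 reads in 3 libraries, Tlr1 in 1 PC library and Tlr9 in 2 PC libraries, and no difference below that floor is detectable at this depth.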
